A study of Mus musculus with 9 samples.

Results

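The genes described here are 30 components of the core autophagy machinery that act at initiation, membrane growth, conjugation and fusion. The rule names the genes by symbol and uses no measured value, but it was drawn up with earlier results of these data known. Their lines in the deposited expression table were summed per symbol. Of the 30, 29 were found under their symbol, and Epg5 was found through its RefSeq accession under the older symbol 5430411K18Rik. The table holds 18062 genes in all after summing, and 11032 of them, including all 30 members, had a mean of at least 0.5 RPKM (reads per kilobase of transcript, scaled to library depth) and were tested.

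RNA came from white gastrocnemius, a fast-fibre muscle of the calf, in mice with and without a working Gaa gene. There were 5 knock-out libraries (Gaa knock-out, 5 months of age) and 4 wild-type libraries (2 at 5 months and 2 at 6 months), all labelled as of mixed background. Gaa encodes acid alpha-glucosidase, the lysosomal enzyme for glycogen that is deficient in Pompe disease. Per the labels, the knock-out was made by disrupting exon 6, with loxP sites in introns 5 and 6, in a BL6/129j colony kept by brother-sister mating for more than 20 generations. The labels name no promoter or tissue that limits the disruption. The columns wt1 to wt4 do not give an age, so both ages form 1 arm, and age cannot be told apart within it. The knock-out libraries were all at 5 months, so age also differs in part between the genotypes, and its part in the differences was not tested. The libraries are numbered without naming the mice, so p-values here reflect library-to-library spread only, which may be technical.

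Autophagy delivers cytoplasm, glycogen and worn organelles to the lysosome. The ULK kinase complex starts the process, a lipid kinase complex around the class III PI3 kinase marks the growing membrane with a lipid that WIPI proteins read, and ATG9 and ATG2 supply lipids. A pair of ubiquitin-like systems then attaches LC3 and GABARAP proteins to the membrane, and SNARE proteins and tethers fuse the closed autophagosome with the lysosome. In Pompe disease muscle, a build-up of autophagosomes and undigested material in the core of fibres is a known feature.

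The Gaa level ranged from 3.11 to 3.64 RPKM in knock-out muscle and from 46.0 to 56.0 in wild-type muscle, in the direction of the labels in all 9 libraries. Among the marker lists examined, that of fast muscle fibres had the highest sum: its 9 genes came to 97427 to 109811 RPKM against 90888 to 97891, which fits the labelled white muscle. By the step that a single read makes in low values, 1 RPKM of a 1-kilobase transcript was worth 17.6 to 37.5 reads per knock-out library and 37.1 to 64.5 per wild-type library, with the fewest in knock-out 3. The members therefore rested on an estimated 96.4 reads (Atg4c, its lowest library) to 7803 reads (Ulk2, its highest). Total RPKM was higher in every knock-out library (349239 to 374056) than in every wild-type library (315337 to 327517), and the median log2 difference over all genes tested was 0.12 toward the knock-out. For this reason each member is given as deposited and again after each library was centred, that is, after its median log2 ratio to the mean of all libraries was set to 0.

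Markers of other cells moved with genotype. Calls of markers are as deposited unless stated, where 37% of all genes tested were higher and 14.8% lower (25.1% and 24.9% centred). Of 11 macrophage markers tested 9 rose and none fell, with a sum over the 15 found of 55.9 to 99.9 RPKM (knock-out) against 21.7 to 31.9 (wild type). All 7 slow-fibre markers rose (186.7 to 446.5 RPKM in sum against 55.02 to 192.8), and 6 were higher centred. Their sums overlapped between genotypes, as did 5 of the 7 genes. Of 10 endothelial markers 7 fell with none higher (28.4 to 49.1 against 39.6 to 64.8), and 9 were lower centred. In sum, fibroblast markers were at 272.7 to 363.6 RPKM against 170.5 to 254.4 (3 of 6 rose). Adipocyte markers were at 176.6 to 280.7 against 184.1 to 308.3 (2 of 5 fell, and 4 of 5 centred). Red cell genes were at 61.7 to 100.5 against 123.6 to 134.5 (3 of 3 fell). Neutrophil markers were near 0 (0.444 to 0.790 against 0.356 to 2.08). Lymphocyte markers summed to 1.17 to 1.67 against 0.0373 to 0.924 RPKM, with Ms4a1 listed at 0 in all libraries but wt4. Cd3e, a T cell gene and the 1 lymphocyte marker tested, was higher under both scalings (log2 fold change 1.97, limma adjusted p = 0.0084, and 0.011 centred). Its mean was 1.31 RPKM against 0.409, but wild-type values were split: 0.0373 and 0.0551 in wt1 and wt2, 0.711 and 0.832 in wt3 and wt4. Cd3g, another T cell gene, was near 0 in both genotypes (mean 0.0060 against 0.032 RPKM) and was not tested. The part of these cells in the levels below was not tested, and in bulk muscle fewer cells of a type and less RNA per cell cannot be told apart.

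The members as a group did not move one way. As deposited, 12 of 30 rose, 5 fell and 13 did not pass the test (limma, Benjamini-Hochberg adjusted p below 0.05 over all genes tested). Over all genes tested 37% were called higher and 14.8% lower, so the members' shares lay near the background. After centring 6 members were higher and 10 lower, against a background of 25.1% higher and 24.9% lower. The 6 that were higher after centring were all among the 12, and the 5 that fell as deposited were all among the 10, so 11 members were called in the same direction under both scalings, 11 under 1 scaling alone and 8 under neither. The centred counts moved with single libraries: 3 were higher without knock-out 3, wt2, wt3 or wt4, and 6 lower without knock-out 1 or wt1. Without any overlap between genotypes, 10 members were higher in the knock-out (background 30.9%) and 3 lower (background 11.4%). After centring this balance turned, to 6 higher (background 20.9%) and 7 lower (background 19.8%). The median log2 fold change of the members was 0.09 as deposited and -0.03 centred, beside 0.12 and -0.0032 for all genes tested. No member changed 2-fold as deposited, beside 6.34% of all genes tested, a share that among 30 genes would be only a few. The median absolute centred log2 difference was 0.15 for the members and 0.24 for all genes. The median spread within a genotype (SD of log2 values) was also smaller for the members, at 0.10 against 0.13.

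**Figure D1:**
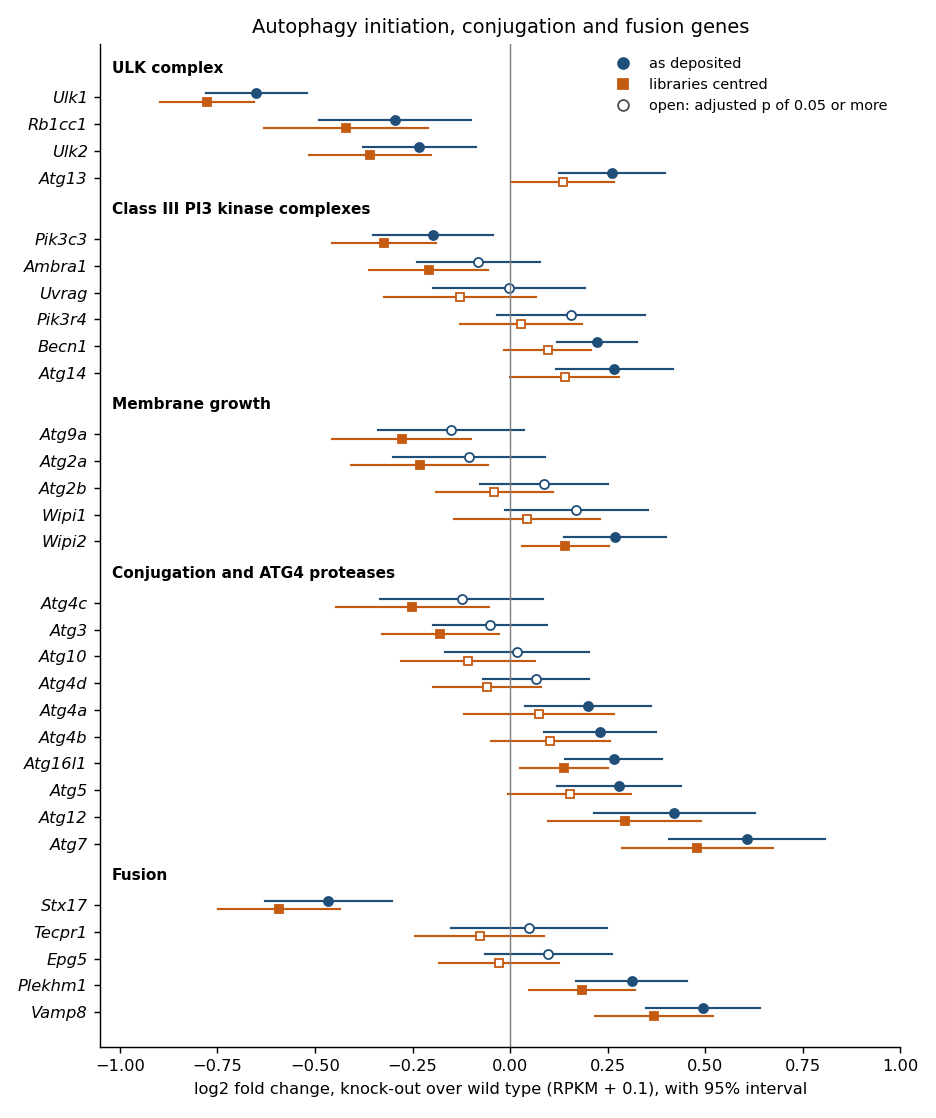
Log2 fold change of each of the 30 members, knock-out over wild type, with its 95% interval, by role. Blue circles are values as deposited, orange squares values after centring, and open symbols have an adjusted p of 0.05 or more; the members run from Ulk1 at -0.65 to Atg7 at 0.61 as deposited, and both signs occur in each role.

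The kinases and scaffold of the ULK complex were lower in the knock-out. Ulk1, the kinase that receives signals from mTORC1 and AMPK, was at 9.24, 10.1, 8.72, 9.30 and 8.68 RPKM in knock-out libraries 1 to 5 and at 14.8, 13.6, 14.6 and 14.9 RPKM in wt1 to wt4. The genotypes did not overlap, and the mean fell from 14.5 ± 0.574 (SD, n = 4) to 9.20 ± 0.567 (SD, n = 5), or to 0.635 of the wild type. This is a log2 fold change of -0.65 (SE 0.06, limma adjusted p = 4.2e-06), or -0.78 centred (SE 0.05, adjusted p = 6.9e-07), the largest decrease among the members. Its paralogue Ulk2 was at 17.4, 17.4, 20.9, 19.1 and 19.5 RPKM in the knock-out and at 21.7, 21.9, 21.0 and 23.8 in the wild type. The highest knock-out value of Ulk2, in library 3, lay just below the lowest wild-type value, in wt3, and the log2 fold change was -0.23 (SE 0.07, adjusted p = 0.012; -0.36 and 0.0015 centred). Rb1cc1, which encodes the scaffold FIP200, was at 9.06, 8.41, 11.6, 10.6 and 9.68 RPKM against 12.0, 12.2, 11.3 and 12.9. For Rb1cc1, knock-out 3 overlapped wt3 as deposited but lay just below it centred (11.25 against 11.37 RPKM), without overlap of the genotypes. The log2 fold change of Rb1cc1 was -0.29 (SE 0.09, limma adjusted p = 0.016), or -0.42 centred (adjusted p = 0.0035). Calls for all 3 genes held under each of the 18 alternative settings.

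The remaining member of this complex differed in direction. Atg13, the regulatory subunit that mTORC1 phosphorylates, was at 9.21, 10.4, 10.9, 10.1 and 10.6 RPKM in the knock-out and at 9.01, 8.05, 8.37 and 8.71 in the wild type, without overlap. Centred, the genotypes overlapped, with knock-out 1 (9.16 RPKM) below wt1 (9.64). Atg13 rose by 0.26 on the log2 scale (SE 0.06, adjusted p = 0.0045), and the centred difference of 0.13 did not pass the test (adjusted p = 0.086). The 4 genes of the complex had a summed level of 44.9 to 52.1 RPKM against 55.3 to 60.3, with no overlap. With Atg101, a subunit that is no member here, added, the sums were 69.1 to 74.8 against 68.9 to 76.8 RPKM and overlapped.

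The class III PI3 kinase complexes make the lipid PI3P on the growing membrane. Of their 6 genes, 2 were higher and 1 lower as deposited, and 0 higher and 2 lower centred. By comparison, 37% of all genes tested were higher and 14.8% lower as deposited, and 25.1% and 24.9% centred. Becn1, the scaffold Beclin 1, was at 24.7, 26.3, 26.7, 25.7 and 24.9 RPKM against 22.8, 21.8, 21.8 and 21.5. All knock-out values of Becn1 exceeded the wild type, by 0.22 on the log2 scale (SE 0.05, adjusted p = 0.0019), and the centred difference was 0.10 (adjusted p = 0.14). Atg14, the subunit that directs the complex to initiation, was at 2.70, 2.73, 2.92, 2.62 and 2.63 RPKM against 2.18, 2.16, 2.38 and 2.26, again without overlap. Its log2 fold change was 0.27 (SE 0.07, adjusted p = 0.0067), or 0.14 centred (adjusted p = 0.088).

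Pik3c3, the catalytic subunit Vps34, went the other way. It was at 4.89, 5.29, 5.45, 4.84 and 4.83 RPKM in the knock-out and at 5.64, 5.26, 6.18 and 6.20 in the wild type, and wt2 lay within the knock-out range. Centred, the genotypes did not overlap (highest knock-out value 5.27 RPKM, lowest wild-type value 5.73). The log2 fold change was -0.20 (SE 0.07, adjusted p = 0.034), or -0.32 centred (SE 0.06, adjusted p = 0.0011). As deposited this call was lost without knock-out 1, 4 or 5 or without wt1, wt3 or wt4 (adjusted p up to 0.099), while centred it held without each library in turn (adjusted p up to 0.0045).

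The other 3 subunits showed smaller differences. Pik3r4, the regulatory subunit Vps15, was at 2.71 ± 0.232 RPKM (SD, n = 5) against 2.43 ± 0.219 (SD, n = 4), with adjusted p = 0.15 as deposited and 0.77 centred. Uvrag, which replaces Atg14 in the complex of later endosomal steps, was at 2.55 ± 0.171 against 2.56 ± 0.289 RPKM, and the 95% interval of its log2 difference ran from -0.20 to 0.19 (adjusted p = 0.99). Ambra1, an activator of both kinase complexes, was at 3.74, 4.31, 3.58, 4.23 and 4.16 RPKM against 4.42, 4.28, 4.20 and 4.04. Its libraries overlapped as deposited but not centred (highest knock-out value 4.03 RPKM, lowest wild-type value 4.17). Ambra1 was called lower only after centring (log2 fold change -0.21, limma adjusted p = 0.027). That call was lost without knock-out 1 or 3 or without wt1 or wt2 (adjusted p up to 0.076). Ambra1 has a pair of transcripts in the table: NM_001080754 was at 2.48 ± 0.196 RPKM against 2.80 ± 0.362 and NM_172669 at 1.53 ± 0.256 against 1.43 ± 0.205. How reads shared by transcripts were divided is not given in the sources used here.

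Among genes of membrane growth, Wipi2 was the member called in the same direction under both scalings. Wipi2, which binds PI3P and recruits Atg16l1, was at 7.65, 8.77, 7.94, 7.76 and 7.74 RPKM in the knock-out and at 6.54, 6.27, 6.95 and 6.63 in the wild type. The genotypes did not overlap, and the log2 fold change was 0.27 (SE 0.06, adjusted p = 0.0029), or 0.14 centred (SE 0.05, adjusted p = 0.036). The centred call was lost without any of knock-out 1, 2 or 3 and without any wild-type library (adjusted p up to 0.084). Its paralogue Wipi1 was more scattered, at 19.6, 20.8, 16.03, 18.6 and 21.8 RPKM against 18.5, 16.5, 17.3 and 16.3, and was not called (log2 fold change 0.17, adjusted p = 0.11). Knock-out 3 held the lowest Wipi1 value of all 9 libraries, and without it Wipi1 was called higher (0.24, adjusted p = 0.012).

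Atg9a, a transmembrane lipid scramblase carried on vesicles, had the highest wild-type level of the 30 members. It was at 26.3, 31.4, 23.2, 23.1 and 26.0 RPKM against 30.2, 26.8, 29.5 and 28.4, and knock-out 2 exceeded every wild-type library. Centred, knock-out 2 lay just below the lowest wild-type value (29.09 against 29.11 RPKM), so the genotypes did not overlap. Atg9a was not called as deposited (log2 fold change -0.15, limma adjusted p = 0.16). It was called lower centred (-0.28, adjusted p = 0.014) and, as deposited, without knock-out 2 (-0.22, adjusted p = 0.015). Atg2a and Atg2b encode bridge-like proteins that transfer lipids to the membrane. Atg2a was at 3.17, 4.10, 3.31, 3.57 and 3.53 RPKM against 4.25, 3.51, 3.93 and 3.53, overlapping, with log2 fold changes of -0.10 as deposited (adjusted p = 0.35) and -0.23 centred (adjusted p = 0.032). The centred call of Atg2a was lost without any of knock-out 1, 3, 4 or 5 and without wt1 or wt3 (adjusted p up to 0.097). Atg2b was at 2.25, 2.47, 2.55, 2.55 and 2.67 RPKM against 2.37, 2.19, 2.31 and 2.51, overlapping, and was called under neither scaling (log2 fold change 0.09 and -0.04 centred, adjusted p = 0.36 and 0.65).

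**Figure D2:**
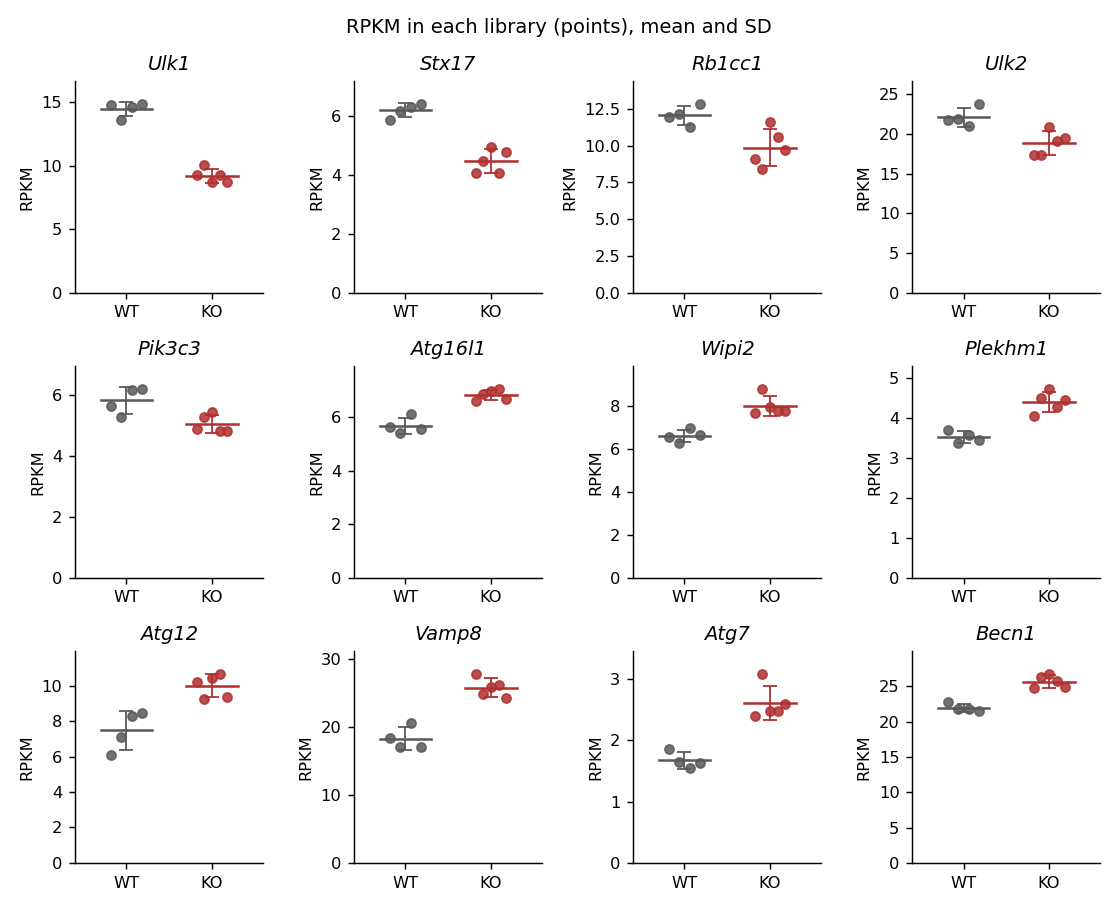
RPKM of the 11 members called in the same direction under both scalings, and of Becn1, in each wild-type (WT, n = 4) and knock-out (KO, n = 5) library, with mean and SD; axes start at 0. Ulk1 lies at 8.68 to 10.1 RPKM (KO) and at 13.6 to 14.9 (WT), and Atg7 at 2.40 to 3.08 against 1.55 to 1.87.

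In the conjugation systems 6 of 10 genes rose and none fell as deposited, and 3 were higher and 2 lower centred. The shares over all genes tested were 37% higher and 14.8% lower as deposited, and 25.1% and 24.9% centred. Atg7, the E1-like enzyme that activates both Atg12 and the LC3 family, had the lowest wild-type level of the 30 members and the largest increase. It was at 2.40, 3.08, 2.49, 2.48 and 2.59 RPKM in the knock-out and at 1.87, 1.65, 1.55 and 1.63 in the wild type. No libraries overlapped, and the mean rose 1.56-fold, from 1.67 ± 0.135 (SD, n = 4) to 2.61 ± 0.275 (SD, n = 5). The log2 fold change of Atg7 was 0.61 (SE 0.09, adjusted p = 1.9e-04), or 0.48 centred (SE 0.09, adjusted p = 9.0e-04), and it held under each of the 18 alternatives. Knock-out 2 stood above the others, and without it the log2 fold change was 0.55.

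Atg12, Atg5 and Atg16l1 together form the E3-like complex that places LC3 on the membrane. Atg12 was at 10.2, 9.25, 10.5, 10.7 and 9.38 RPKM against 6.11, 7.10, 8.32 and 8.45. As deposited, all knock-out values of Atg12 lay above the wild type, among which wt1 and wt2 were lower than wt3 and wt4. Centred, the genotypes overlapped, with knock-out 2 (8.57 RPKM) below wt4 (8.72). Atg12 rose 1.33-fold as deposited (log2 fold change 0.42, SE 0.09, limma adjusted p = 0.0030). Its centred log2 fold change was 0.29 (adjusted p = 0.017). Atg5, to which Atg12 is joined, was at 5.34, 4.77, 5.46, 5.54 and 5.48 RPKM against 4.41, 3.88, 4.49 and 4.69. As deposited, the lowest knock-out value, in library 2, lay just above the highest wild-type value. The log2 fold change of Atg5 was 0.28 (SE 0.07, limma adjusted p = 0.0073). Centred, knock-out 2 lay below wt4 (4.41 against 4.84 RPKM). Atg5 then did not pass the test (0.15, adjusted p = 0.099), but did without knock-out 2 (0.20, adjusted p = 0.018). Atg16l1, the subunit that binds Wipi2, was at 6.61, 6.85, 6.96, 7.05 and 6.66 RPKM against 5.61, 5.41, 6.11 and 5.54, without overlap. It rose by 0.27 on the log2 scale (SE 0.06, adjusted p = 0.0022; 0.14 and 0.041 centred), and the centred call was lost on leaving out any library but knock-out 2 (adjusted p up to 0.11).

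The E2-like enzymes did not rise. Atg3, which transfers LC3 to lipid, was at 6.72, 7.01, 6.47, 7.22 and 7.09 RPKM against 6.94, 7.64, 7.65 and 6.45. The genotypes overlapped, with wt2 and wt3 above every knock-out library. Its log2 fold change was -0.05 as deposited (adjusted p = 0.54) and -0.18 centred, just past the threshold (adjusted p = 0.047), and that call was lost on leaving out any library but wt4 (adjusted p up to 0.14). Atg10, the enzyme that joins Atg12 to Atg5, was at 3.72, 3.33, 3.71, 3.84 and 3.39 RPKM against 3.47, 3.05, 3.89 and 3.83. Its libraries overlapped, and it was called under neither scaling (log2 fold change 0.02 and -0.11 centred, adjusted p = 0.87 and 0.27).

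The 4 ATG4 proteases, which trim LC3 and GABARAP before conjugation and release them afterwards, differed among themselves. Atg4b, the main LC3 protease, was at 4.98, 4.33, 4.90, 4.95 and 4.92 RPKM against 3.87, 4.13, 4.37 and 3.996. Only knock-out 2 reached into the wild-type range for Atg4b, which rose by 0.23 on the log2 scale (SE 0.07, adjusted p = 0.012; 0.10 and 0.24 centred). Atg4a was at 12.0, 10.0, 13.0, 12.0 and 11.9 RPKM against 10.2, 10.7, 9.49 and 10.5, with knock-out 2 again within the wild-type range. Its log2 fold change was 0.20 (SE 0.07, adjusted p = 0.039; 0.07 and 0.51 centred), and the call as deposited was lost on leaving out any library but knock-out 2 and wt2 (adjusted p up to 0.11).

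Atg4d, the most abundant of the 4 in the wild type, was at 13.5, 14.0, 11.5, 12.6 and 12.6 RPKM against 12.3, 12.2, 12.6 and 11.8. Its libraries overlapped, and it was not called (log2 fold change 0.07 and -0.06 centred, adjusted p = 0.39 and 0.46). Atg4c was at 1.58, 1.89, 1.97, 1.601 and 1.85 RPKM against 2.03, 1.78, 1.83 and 2.13, overlapping, with a log2 fold change of -0.12 as deposited (adjusted p = 0.30) and -0.25 centred (adjusted p = 0.036). The centred call of Atg4c was lost without knock-out 1 or 4 or without wt1 or wt4 (adjusted p up to 0.10). The deposited table splits Atg4c into NM_175029, at 0.714 ± 0.224 RPKM against 1.01 ± 0.197, and NM_001145967, at 1.06 ± 0.184 against 0.930 ± 0.342. When the transcript with the higher mean alone stood for the gene, its difference turned to 0.22 (adjusted p = 0.42).

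The genes of fusion held both a member that fell and members that rose. Stx17, the SNARE that autophagosomes acquire when they close, was at 4.09, 4.48, 4.97, 4.06 and 4.79 RPKM in the knock-out and at 5.87, 6.19, 6.32 and 6.43 in the wild type. The genotypes did not overlap, and the mean fell from 6.20 ± 0.242 (SD, n = 4) to 4.48 ± 0.409 (SD, n = 5), or to 0.722 of the wild type. The log2 fold change of Stx17 was -0.47 (SE 0.07, adjusted p = 2.8e-04), or -0.59 centred (SE 0.07, adjusted p = 4.6e-05). Vamp8, its partner SNARE on the lysosome, was at 27.8, 24.8, 25.9, 26.1 and 24.2 RPKM against 18.5, 17.1, 20.6 and 17.0. The lowest Vamp8 value of the knock-out exceeded the highest of the wild type, and the mean rose 1.41-fold, from 18.3 ± 1.65 to 25.8 ± 1.38 RPKM. The log2 fold change of Vamp8 was 0.50 (SE 0.07, adjusted p = 8.4e-05), or 0.37 centred (SE 0.07, adjusted p = 0.0010). Calls of both SNARE genes held under each of the 18 alternatives. Vamp8 is also a secretory SNARE of blood and epithelial cells, and the macrophage markers rose in the same libraries, from 21.7 to 31.9 RPKM in sum to 55.9 to 99.9; their part in the Vamp8 level was not tested.

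Plekhm1, an adaptor that links Rab7 on the lysosome with LC3 and the HOPS tether, was at 4.06, 4.496, 4.74, 4.28 and 4.46 RPKM against 3.71, 3.38, 3.59 and 3.45, without overlap. It rose by 0.31 on the log2 scale (SE 0.06, adjusted p = 0.0019), or 0.19 centred (adjusted p = 0.027). The centred call of Plekhm1 was lost without knock-out 3 or 5 or without wt2, wt3 or wt4 (adjusted p up to 0.074). Epg5, a tether of autophagosomes to late endosomes, was at 3.76, 4.55, 4.64, 3.94 and 4.42 RPKM against 3.93, 4.02, 3.93 and 3.97. The wild-type values of Epg5 lay close together inside the knock-out range, and it was called under neither scaling (adjusted p = 0.29 and 0.76). Tecpr1, a tether that binds the Atg12-Atg5 conjugate, was at 3.02, 3.77, 3.02, 3.57 and 3.61 RPKM against 3.20, 2.94, 3.66 and 3.31, overlapping. The 95% interval of its log2 difference ran from -0.15 to 0.25 (adjusted p = 0.67; -0.08 and 0.41 centred).

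Ratios of partner genes within a library do not depend on the scaling of the library. Across 8 such ratios of (RPKM + 0.1), none passed a two-sided exact permutation test after adjustment over the 8. Ulk1 stood to Ulk2 as 0.535, 0.583, 0.420, 0.490 and 0.448 in the knock-out and as 0.682, 0.625, 0.697 and 0.627 in the wild type, so that the ratio was lower in every knock-out library (log2 difference -0.42, exact permutation p = 0.016, adjusted 0.13). The smallest exact p that 9 libraries in groups of 5 and 4 allow is 0.0079, and a single ratio at that value has an adjusted p of 0.063 over the 8, so no ratio could have passed alone. Atg14 stood to Uvrag, the subunits that compete for Beclin 1, as 0.974 to 1.19 against 0.758 to 1.03, with overlap (log2 difference 0.27, exact permutation p = 0.056, adjusted 0.15). The ratio of Atg4c to Atg4b was 0.330 to 0.449 against 0.432 to 0.545 (log2 difference -0.35, exact permutation p = 0.040, adjusted 0.15), and only -0.011 with the transcript of the highest mean alone. That of Atg2a to Atg2b was 1.28 to 1.64 against 1.39 to 1.76 (-0.19, exact permutation p = 0.079, adjusted 0.16). Wipi1 to Wipi2, Atg4a to Atg4b, Atg4d to Atg4b and Atg10 to Atg3 differed by -0.10, -0.03, -0.16 and 0.07 on the log2 scale, each with overlap and an adjusted exact p of at least 0.20.

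**Figure D3:**
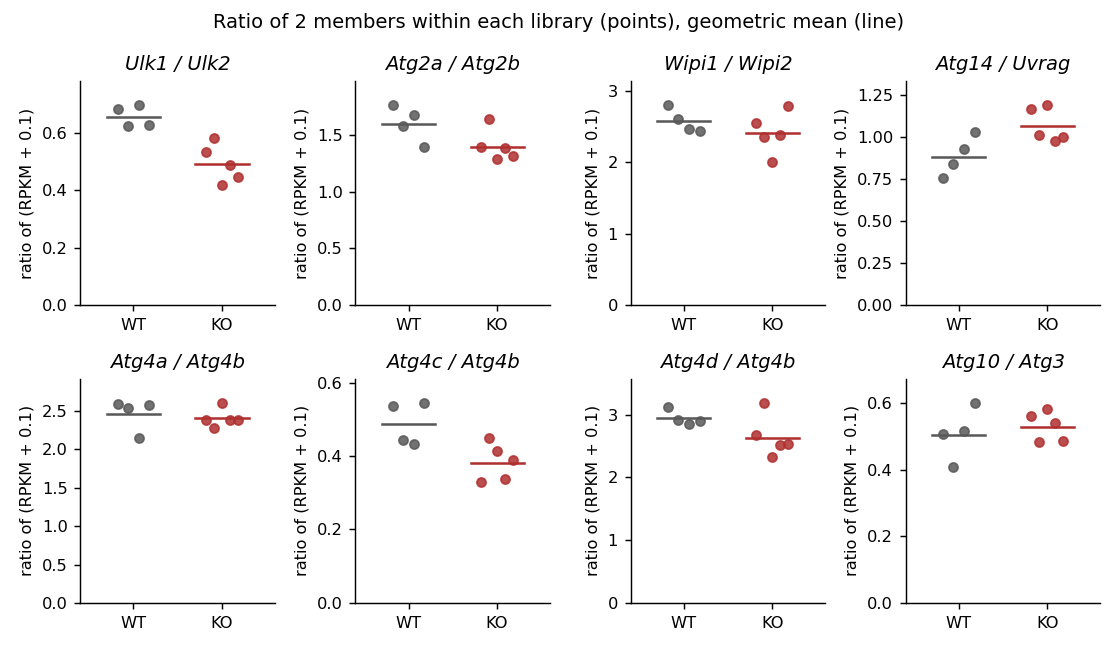
Ratio of (RPKM + 0.1) of the named members within each wild-type (WT, n = 4) and knock-out (KO, n = 5) library, with the geometric mean as a line. The ratio of Ulk1 to Ulk2 is 0.420 to 0.583 (KO) and 0.625 to 0.697 (WT), and the other 7 ratios overlap.

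Transcript length moved with the difference between genotypes across the whole table. The median log2 difference was 0.23 for the 3610 genes with the shortest transcripts (up to 2137 bases), 0.12 for the 3609 in the middle and 0.03 for the 3609 with the longest (from 3752 bases). Of the members, 4 lay in the shortest class, 7 in the middle and 19 in the longest. Vamp8 has the shortest transcript of those that rose (820 bases), and its log2 fold change was 0.21 (adjusted p = 0.0079) once a trend with length was removed from each library. With that removal Atg7 was at 0.51 (adjusted p = 6.7e-04), Atg12 at 0.38 (adjusted p = 0.0050), Stx17 at -0.48 (adjusted p = 1.2e-04) and Ulk1 at -0.68 (adjusted p = 5.5e-06). Atg4a, Atg4b and Atg5 were no longer called (limma adjusted p = 0.72, 0.094 and 0.16), and Atg9a, Atg3 and Atg4c were called lower (adjusted p = 0.031, 0.017 and 0.034). Atg13, Becn1 and Atg14, which were not called centred, stayed higher with this removal (adjusted p = 0.036, 0.027 and 0.045).

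**Figure D4:**
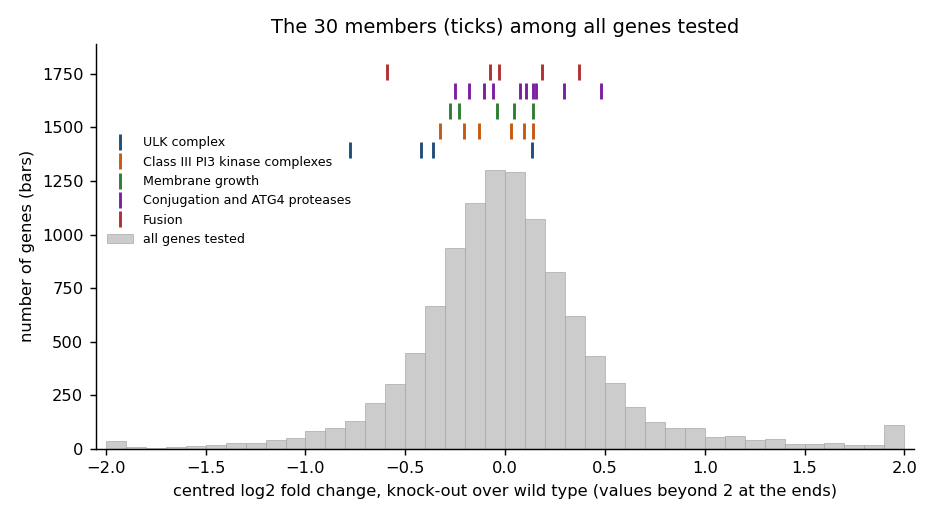
Centred log2 fold changes of all 11032 genes tested (grey bars, number of genes per bin of 0.1, with values beyond 2 in either direction drawn at the ends) and of the 30 members (ticks, 1 row per role). The members lie between -0.78 and 0.48 and on both sides of 0.

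Other genes of the pathway were taken from lists that share no gene with the members, and no test compared these lists with the members. All 5 ubiquitin-like tags rose under both scalings, with a summed level of 403.1 to 443.1 RPKM against 219.3 to 245.7. Map1lc3a, an LC3 tag, rose to 191 ± 13.2 RPKM from 74.0 ± 7.88 and Gabarap to 88.0 ± 5.22 from 53.5 ± 1.46 (limma adjusted p = 6.8e-08 and 8.6e-07). Of 5 cargo receptors 3 rose as deposited and 2 centred, with Sqstm1 (p62) at 421 ± 31.6 against 198 ± 16.1 RPKM and Nbr1 at 29.6 ± 2.07 against 20.8 ± 0.993. Both lists were known from earlier results to be higher, so these counts are no independent evidence. Over all genes tested, 37% were higher as deposited and 25.1% centred.

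Of 9 genes of the HOPS tether, the SNARE partners of Stx17 and Rab7, 4 rose and none fell as deposited, and 0 were higher and 1 lower centred, beside 37% and 14.8% of all genes as deposited and 25.1% and 24.9% centred. Vps16 and Vps18, core subunits of HOPS, rose to 4.09 ± 0.365 from 3.35 ± 0.118 RPKM and to 3.43 ± 0.208 from 2.89 ± 0.233 (adjusted p = 0.0081 and 0.019), and the centred differences did not pass the test (adjusted p = 0.099 and 0.16). Snap29, the remaining SNARE of the Stx17 complex, named after its values were seen, was at 9.29 ± 1.10 against 9.62 ± 0.719 RPKM (adjusted p = 0.62). Rab7, the GTPase of late endosomes and lysosomes, was called lower only after centring (log2 fold change -0.26, adjusted p = 0.0090).

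Of 13 other initiation and phagophore genes 8 rose and 1 fell as deposited, and 4 were higher and 2 lower centred. Among all genes tested, 37% rose and 14.8% fell as deposited, and 25.1% were higher and 24.9% lower centred. Wdr45, a PI3P-binding relative of the WIPI proteins, rose to 15.8 ± 0.647 from 11.5 ± 0.653 RPKM (adjusted p = 4.4e-05). Atg101, the partner of Atg13 in the ULK complex, rose to 23.1 ± 1.32 from 16.005 ± 1.95 RPKM (log2 fold change 0.53, adjusted p = 2.4e-04; 0.41 and 0.0010 centred). Mtmr3, a phosphatase that removes PI3P, fell to 10.2 ± 0.552 from 13.2 ± 0.488 RPKM (adjusted p = 2.0e-04) and was lower centred as well (adjusted p = 1.4e-05).

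Promoter windows of RefSeq (build GRCm38.p6, 250 bases before to 50 after a transcript start) were at hand for 24 of the 30 members, and were read for the E-box CACGTG, the core of the element bound by TFEB and its relatives. The motif is its own reverse complement, and it was found for 4 of 24 members (16.7%) and for 8.09% of all 27025 genes with a window. The 7-letter form TCACGTG, read on both strands and overlapping the first motif, was found for 3 members (Atg3, Atg7 and Atg14) and 4.29% of all genes, and the FoxO motif TGTTTAC, read on both strands, for 0 members and 4.05% of all genes. These are matches of letters, not sites of binding. The stretches are shown because they include Atg7 and Atg3, whose levels differ in direction after centring; they are written on the strand of the gene, with the E-box in capitals, and end no later than the start site or the motif.
Atg7, chr6:114670937-114670996, plus strand: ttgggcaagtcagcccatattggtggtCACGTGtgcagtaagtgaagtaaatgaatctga
Atg3, chr16:45158731-45158790, plus strand: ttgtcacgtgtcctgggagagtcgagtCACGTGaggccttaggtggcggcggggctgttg
Atg5, chr10:44268298-44268338, plus strand: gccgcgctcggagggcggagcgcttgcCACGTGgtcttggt
Atg14, chr14:47568430-47568462, minus strand: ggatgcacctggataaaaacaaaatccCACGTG
The Atg3 stretch holds a second copy in lower case near its left end. The Atg7 window belongs to a start that lies 27969 bases inside the gene's 5′ end, whereas those of Atg3 and Atg14 are at the gene's 5′ end and that of Atg5 is 17 bases inside it. Of these 4 genes Atg7 was higher under both scalings, Atg5 and Atg14 only as deposited, and Atg3 was lower only centred.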

How the data were processed

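RNA was extracted with Trizol and libraries were made with the Illumina TruSeq kit, per the labels' protocols. The deposited values are RPKM, as the deposit names them, for each RefSeq transcript in each library; build mm9, TopHat 1.3.2, Bowtie 0.12.7.0 and Partek 6.6 are named in the submitters' processing notes, and the sources used here do not give their roles, strand or filters. RPKM of the 23665 transcripts was summed per symbol; 36 of 37 symbols turned into dates were restored by accession. All 9 value columns were used. RPKM is no count, so log2(RPKM + 0.1) was tested with limma 3.58.1 (R 4.3.3; lmFit, eBayes with trend, two-sided) for genes with a mean of at least 0.5 RPKM in the 5 and 4 libraries, adjusted by Benjamini-Hochberg over 11032 genes, threshold 0.05. Log2 fold changes use this scale, on which changes of low genes come out too small, and intervals of differences are unadjusted 95% intervals. The limma fit was tested on simulated data with known fold changes. Among genes with a mean above a cut stricter than 0.5 RPKM, at most 0.0103% had equal values between any 2 libraries, so none was counted as a repeat of another.

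Transcript lengths came from GENCODE M21, matched by accession for 22640 transcripts; since its build is GRCm38, no mm9 coordinates are given. Depth was estimated from whole-read steps: 70.8% to 74.7% of values of up to 5 reads lay within 0.1 of a whole number. Every member is named; values of every library are given for members called under both scalings, under 1 alone or with a sign that differs between them, and also for Wipi1. Of other pathway lists, the 2 smallest p in each direction are named. Atg101, Rab7 and Snap29 are named as partners of members or single calls. The members and lists were chosen with earlier results of these data known. Alternatives were other pseudocounts, filters, scalings, transcript choice, test settings and leaving out each library. Python 3.11.15, pandas 2.3.3, numpy 2.4.6 and matplotlib 3.10.9 were used.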

Additional observations from a re-analysis of the deposited data

Results flagged for a closer look

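Among the 62 groups of libraries examined (30 members and Gaa, in each genotype), 4 had a library far from the rest of its group, where chance flags about 1 in 20 groups. All 4 were knock-out 2: Wipi2 at 8.77 RPKM and Atg7 at 3.08 RPKM stood above the other knock-out libraries, and Atg4b at 4.33 RPKM and Atg5 at 4.77 RPKM stood below them. Without knock-out 2, 12 members were higher and 6 lower as deposited, and 6 higher and 9 lower centred.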

How the results depend on the processing

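As deposited, 12 members were higher and 5 lower. With each library centred, and also with quantile normalization, the counts were 6 higher and 10 lower. With the length trend removed, 9 were higher and 8 lower. The centred counts were 8 higher and 6 lower without a filter on low values. Leaving out 1 library at a time, the centred counts ran from 3 to 6 higher and from 6 to 9 lower: 3 were higher without knock-out 3, wt2, wt3 or wt4, and 6 lower without knock-out 1 or wt1. Over all genes 5005 to 6272 were called under the alternatives. Of the 17 members called as deposited, 10 kept their call and direction under all 18 alternatives: Ulk1, Ulk2, Rb1cc1 and Stx17 lower, and Atg7, Atg12, Atg16l1, Wipi2, Vamp8 and Plekhm1 higher. The 18 do not include leaving out libraries after centring, where Wipi2 kept its call in 2 of 9 cases, Atg16l1 in 1 and Plekhm1 in 4.

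Signs turned only for members not called as deposited. With centring and with quantile normalization, Atg2b was at -0.0400 and -0.0648, Atg4d at -0.0593 and -0.0842, Atg10 at -0.11 and -0.12, Epg5 at -0.0284 and -0.0315, and Tecpr1 at -0.0776 and -0.0917. With the length trend removed, Wipi1 was at -0.00070 and Atg10 at -0.19. Atg4c was at 0.22 with the transcript of the highest mean alone. Leaving out 1 library, Uvrag ran from -0.0717 to 0.0573, Atg10 from -0.0513 to 0.0627 and the log2 ratio of Atg10 to Atg3 from -0.0309 to 0.16. The cause was not tested. No paired analysis was possible because the wild-type columns cannot be matched to the numbers in the titles. Depth is only estimated, and at an estimated 96.4 reads in its lowest library Atg4c is the least certain member.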
